A study of Mus musculus with 6 samples.

Results

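Heat shock proteins and DNAJ co-chaperones were followed in RNA-seq libraries of 5-fluorouracil-treated mice. The genes were chosen by name among the 41325 gene rows of each library: protein-coding genes whose symbol starts with Hspa, Hspb, Hspd, Hspe, Hsph or Hsp90, or with Dnaja, Dnajb or Dnajc and a number. This gave 74 genes, 29 of them heat shock protein genes and 45 of them DNAJ genes. By family they were 3 HSP90, 11 HSP70, 3 HSP110, 2 HSP60 and HSP10, 7 small heat shock protein, 4 DNAJA, 13 DNAJB and 28 DNAJC genes, with 3 genes (Hspb11, Hspbp1 and Hspbap1) that share the prefix without belonging to these chaperone classes. The series holds 6 bulk libraries from female ICR mice bought at 10 weeks of age, kept on a commercial chow and injected intraperitoneally with 5-fluorouracil, an antimetabolite that blocks DNA synthesis, 2 times a week over 3 weeks, at a daily dose of 20 mg/kg. In 3 libraries, from the elemental diet group, the mice also received by mouth the amino acid formula Elental at 1.6 kcal in 0.8 mL per day on 5 days a week. In the other 3 libraries, from the control group, labelled control diet, the mice received saline in the same volume. All mice carried the 5-fluorouracil treatment, so the data compare elemental diet with saline under the drug and hold no undosed animals. The labels give 3 mice per group without tying a library to a mouse, so the spread between libraries may be partly technical.

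Molecular chaperones bind unfolded stretches of protein and use cycles of ATP hydrolysis to hold, refold or hand on their clients. HSP70 proteins do this with J-domain co-chaperones (DNAJ proteins), which bring clients and trigger ATP hydrolysis, and with nucleotide exchange factors such as the HSP110 proteins, which reset the cycle. HSP90 proteins mature kinases and receptors, HSP60 with its lid HSP10 folds proteins inside mitochondria, and small heat shock proteins hold unfolded clients without ATP. Several of these genes are targets of the heat shock factor HSF1, while the endoplasmic reticulum (ER) members answer to the unfolded protein response.

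The tissue label is salivary gland, and its defining transcripts were nearly missing. Of 13 listed acinar genes 6 had no read in any library (Smgc, Pip, Bpifa1, Prb1, Dcpp1 and Dcpp3) and the whole list summed to 5.63 to 6.67 CPM with elemental diet and 13.4 to 15.2 CPM with saline, where CPM is the read count of a gene scaled to library size with edgeR's TMM factors. The libraries held 29053287 to 33073125 reads assigned to genes. Listed salivary duct and basal genes summed to 6.74 to 15.7 CPM with elemental diet and 18.2 to 22.3 CPM with saline, and genes of keratinocytes, which the extraction protocol names, to 1.25 to 1.87 CPM with elemental diet and 2.70 to 3.55 CPM with saline. Marker lists of blood cells and of proliferation moved with the groups. All 10 erythroid genes rose and summed to 43044 to 44006 CPM with elemental diet and 2873 to 4558 CPM with saline. All 10 proliferation genes rose and summed to 4405 to 5185 CPM with elemental diet and 149 to 157 CPM with saline. All 9 B cell genes fell and summed to 888 to 948 CPM with elemental diet and 6871 to 7129 CPM with saline, and all 7 T cell genes fell and summed to 59.2 to 64.6 CPM with elemental diet and 379.8 to 463 CPM with saline. The part of these differences in the chaperone results below was not tested, and in bulk libraries fewer cells of a type and less RNA per cell cannot be told apart.

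Most chaperone genes were higher with elemental diet. The 8 largest rises were those of the DNAJ genes Dnajc6, Dnajb3 and Dnaja4, the HSP110 genes Hspa4l and Hsph1, cytosolic HSP90 alpha (Hsp90aa1), the HSP60 gene Hspd1 and the small heat shock gene Hspb6; Dnajb3 has no unique read and is uncertain. Of the 74 genes 68 had enough reads to be tested, and of these 43 rose, 8 fell and 17 did not pass edgeR's quasi-likelihood test at a Benjamini-Hochberg adjusted p under 0.05. Over all 18303 genes tested, 38.0% were called higher and 40.2% lower, 78.1% in all. Among the tested chaperone genes the shares were 63.2% higher and 11.8% lower. Their median log2 fold change was 0.60, against -0.08 over all genes tested. Changes of more than 2-fold numbered 21 rises and 2 falls, where 19.1% and 23.7% of all tested genes rose and fell by that much. The 6 libraries did not overlap between groups in 53 of the 68 genes, against 81.0% of all tested genes. A lack of overlap was thus common in these data and sets no gene below apart. The split depended on scaling: without composition normalization 36 rose and 18 fell (29.5% and 50.6% of all tested genes did), and with upper quartile scaling 37 rose and 18 fell (30.6% and 49.5%). The median of all genes then moved to -0.39 and -0.35. In these fits 7 and 6 of the rises lost their call, and 10 further genes were called lower in each, among them Hsp90b1, Hspa13, Hspb8 and Dnajc3.

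**Figure D1:**
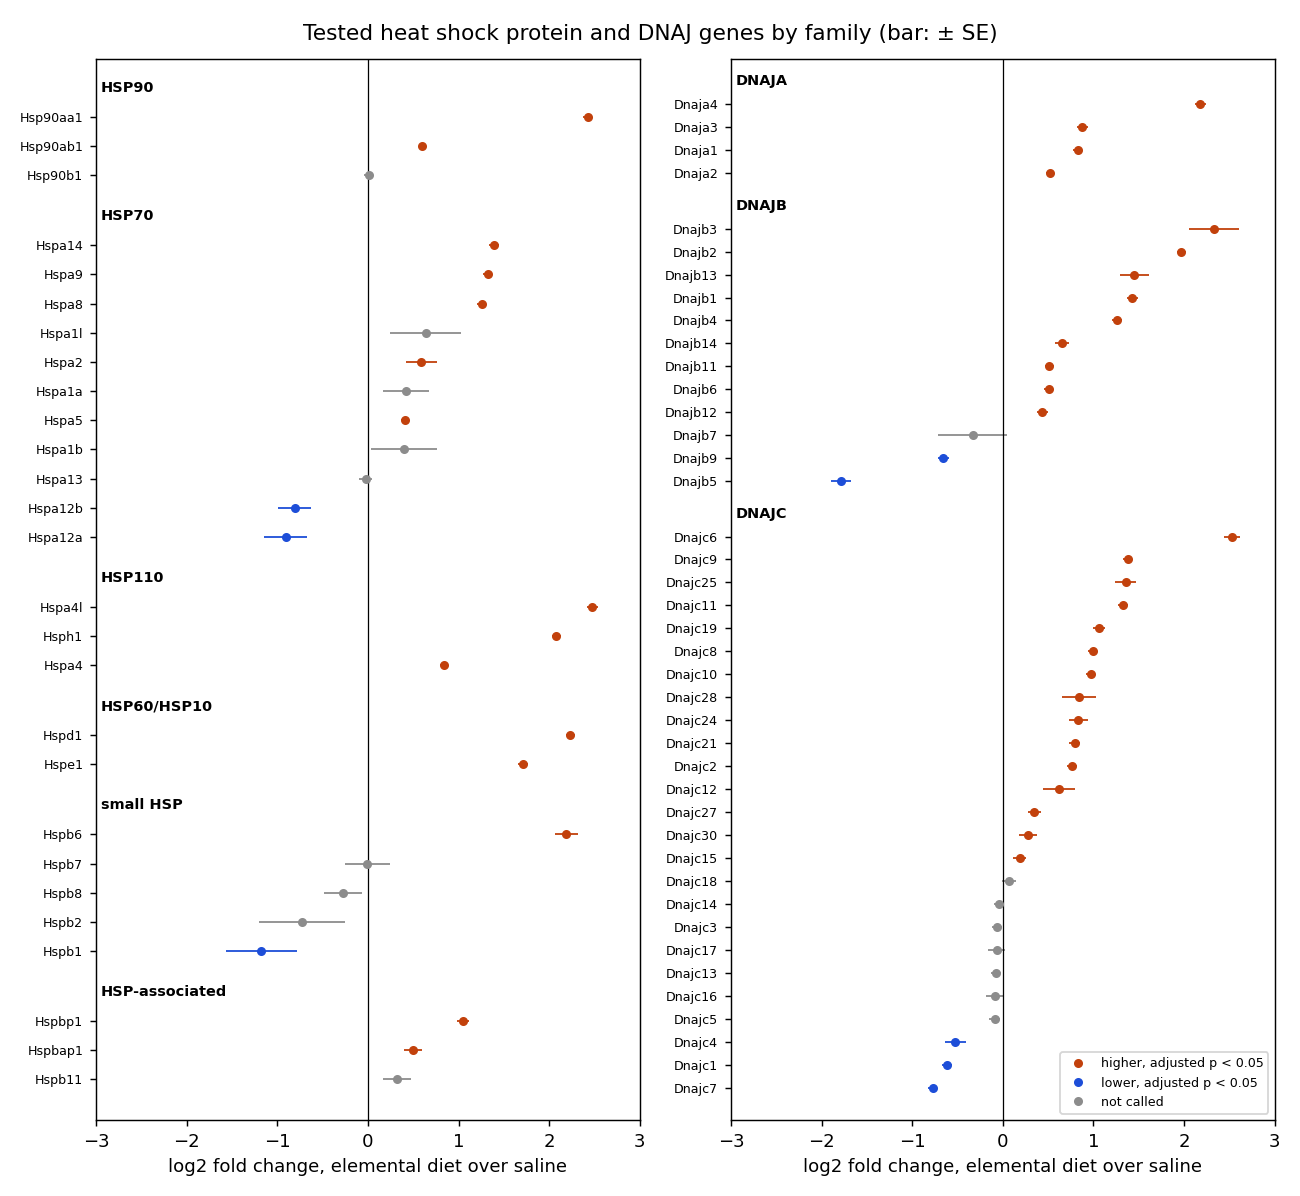
Log2 fold change of elemental diet over saline for the 68 tested genes, grouped by family, from edgeR on 3 libraries per group. Points are estimates, bars are ± 1 SE, and colours mark genes higher, lower or not called at an adjusted p under 0.05. The HSP110, HSP60/HSP10 and DNAJA genes all lie to the right of 0, while the small HSP genes spread to both sides.

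Per unit of length, these genes together carried more transcripts with elemental diet. Summed over the 74 genes, the deposited TPM (relative transcript abundance adjusted for gene length) came to 8087, 7986 and 7903 with elemental diet and 5182, 5147 and 5193 with saline. The groups were far apart, with a ratio of means of 1.54. TPM carries no composition factor, unlike the CPM used for the tests. HSP60 and HSP10 together summed to 1155, 1129.7 and 1052 TPM with elemental diet and 374, 360.1 and 351 with saline, the widest ratio of any family at 3.08. For HSP90 the sums were 2998, 2937 and 2895 TPM with elemental diet and 1978, 1958 and 2012 with saline, the most abundant family in every library. The small heat shock proteins were the only family with a lower mean, at 46.6, 35.0 and 31.5 TPM with elemental diet and 59.5, 56.4 and 46.5 with saline, and their groups overlapped. DNAJ genes as a whole differed less than HSP genes, with ratios of 1.25 and 1.67; the difference between these ratios was not tested.

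**Figure D2:**
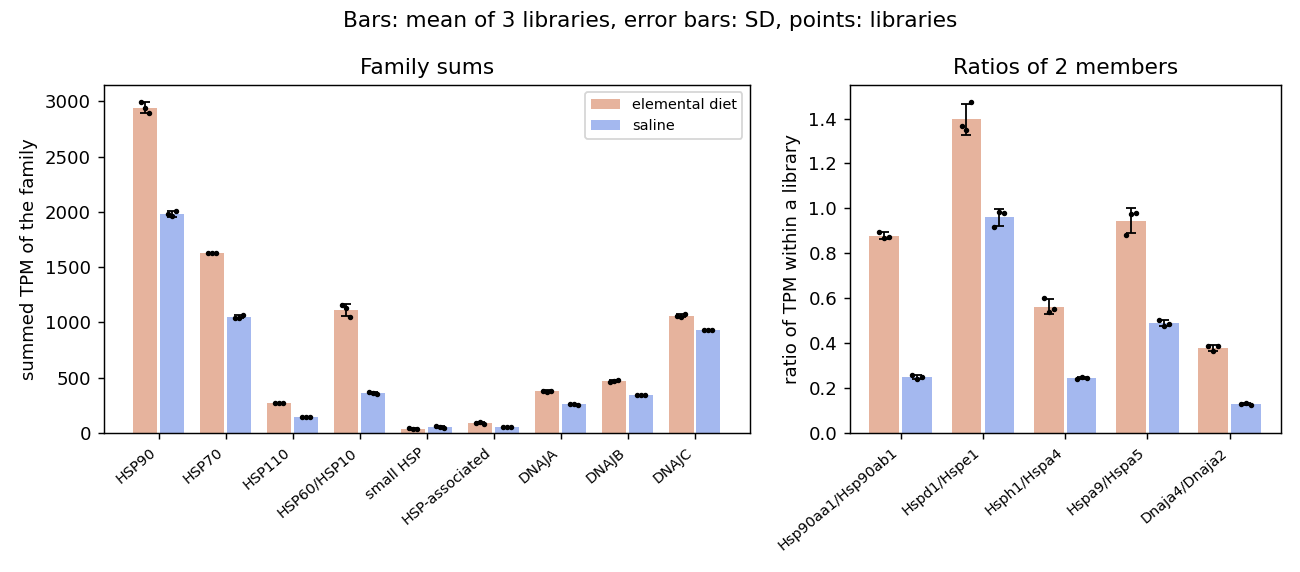
Left, deposited TPM summed over each family in elemental diet (left bar of each pair) and saline libraries. Right, ratio of TPM of a pair of genes within each library. Bars are means of 3 libraries, error bars are SD and points are libraries. The Hsp90aa1 to Hsp90ab1 ratio lies between 0.868 and 0.895 with elemental diet and between 0.240 and 0.257 with saline.

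Among the HSP90 genes, the stress-inducible cytosolic form Hsp90aa1 (chromosome 12, 110690605 to 110702728 on GRCm38) changed most. It stood at 1819, 1811 and 1790.5 CPM with elemental diet, against 341, 323 and 347 CPM with saline. Every elemental diet library was above every saline library (log2 fold change 2.42 ± 0.05 SE, edgeR's adjusted p = 2.0e-14). The constitutive cytosolic form Hsp90ab1 stood at 1546, 1589.8 and 1566 CPM with elemental diet, against 1011, 1026 and 1059.7 CPM with saline. It rose too, by less (log2 fold change 0.60 ± 0.04 SE, edgeR's adjusted p = 1.1e-08). The ER form Hsp90b1, also called GRP94, stood at 621, 603 and 576 CPM with elemental diet, against 599, 583 and 609 CPM with saline, with overlapping groups (log2 fold change 0.01 ± 0.05 SE, edgeR's adjusted p = 0.883). With exon-exon reads it was called lower (log2 fold change -0.29, edgeR adjusted p = 1.3e-04). A ratio taken within a library does not depend on scaling between libraries: the TPM of Hsp90aa1 over that of Hsp90ab1 was 0.895, 0.868 and 0.872 with elemental diet and 0.257, 0.240 and 0.249 with saline. The alpha form came close to the beta form only in the elemental diet libraries. Its means were 0.878 ± 0.0147 and 0.249 ± 0.00854 (SD, n = 3 each; p = 0.1 in an exact permutation test, two-sided, which 3 libraries against 3 cannot go below). Of the Hsp90aa1 reads 50.9% with elemental diet and 50.4% with saline were unique, and on unique reads alone its log2 fold change was 2.40.

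Over all tested genes 40.2% fell and 38.0% rose, which is near the 45.5% of HSP70 genes that rose. Of the 11 HSP70 genes 5 rose, 2 fell (18.2%) and 4 did not pass the test. Hspa8, the constitutive cytosolic HSC70 and the most abundant of them (chromosome 9, 40800984 to 40810087), stood at 1393, 1444 and 1432 CPM with elemental diet, against 578, 581 and 628 CPM with saline. The groups did not overlap (log2 fold change 1.26 ± 0.05 SE, edgeR's adjusted p = 1.2e-11). Only 26.3% of its reads with elemental diet and 25.8% with saline were unique, and unique reads gave 1.25. Hspa9, the mitochondrial HSP70 or mortalin, stood at 446, 484 and 485 CPM with elemental diet, against 191, 186 and 190.4 CPM with saline. It rose in every library of the elemental diet group (log2 fold change 1.32 ± 0.05 SE, edgeR's adjusted p = 1.1e-11). Hspa14, an atypical HSP70 of the ribosome-associated complex in human cells, likewise rose (log2 fold change 1.39, SE 0.05, edgeR adjusted p = 1.4e-11), with 93.2% unique reads with elemental diet. Its partner in that complex, Dnajc2, is described with the DNAJC genes.

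Hspa5, the ER HSP70 known as BiP, was higher in scaled counts and not in TPM. It stood at 541, 531 and 529 CPM with elemental diet, against 396, 403 and 404 CPM with saline, with a log2 fold change of 0.41 (SE 0.04, edgeR adjusted p = 6.8e-07). On the TPM scale its levels overlapped, at 339, 324 and 324 with elemental diet and 327, 332 and 327 with saline. With exon-exon reads the log2 fold change was 0.09 and the call was lost (edgeR adjusted p = 0.109). The TPM of Hspa8 over that of Hspa5 was 2.55, 2.69 and 2.69 with elemental diet and 1.45, 1.43 and 1.54 with saline, so the cytosolic form gained on the ER form within libraries. Hspa13, a further HSP70 of the ER, was not called (log2 fold change -0.03, edgeR adjusted p = 0.745).

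The heat-inducible HSP70 genes Hspa1a and Hspa1b, neighbours in the major histocompatibility region of chromosome 17, stayed low in both groups. Hspa1a had 5.95, 4.56 and 2.70 CPM with elemental diet, against 2.92, 3.18 and 3.79 CPM with saline. Hspa1b had 12.6, 5.31 and 5.00 CPM with elemental diet, against 6.18, 5.71 and 5.48 CPM with saline. The groups overlapped for both genes, and neither passed the test (log2 fold changes 0.42 and 0.40, edgeR adjusted p = 0.15 and 0.345). Without elemental diet replicate 3 Hspa1a was called, at a log2 fold change of 0.69 (edgeR adjusted p = 0.00777). The copies are nearly identical, and 23.0% of Hspa1a and 54.1% of Hspa1b reads with elemental diet were unique, so their split is uncertain. Elemental diet replicate 1 had the highest level of both genes. In the same library the 4 fibroblast markers summed to 486 CPM, against 337 and 275 in the other elemental diet libraries and 294 to 333 with saline; their part in the result was not tested. Hspa1l, the third gene of this cluster, had 1.03, 3.44 and 2.89 CPM with elemental diet, against 1.502, 1.201 and 2.03 CPM with saline. It was not called (edgeR adjusted p = 0.159), but without elemental diet replicate 1 its log2 fold change was 1.02 (edgeR adjusted p = 0.00253). Only 4.93% of its reads with elemental diet and 6.96% with saline were unique, so that rise is uncertain. Hspa2, the HSP70 abundant in testis, rose by 0.59 on the log2 scale (edgeR adjusted p = 0.00722). Its call was lost without composition normalization and with upper quartile scaling, and its TPM overlapped between groups. The atypical HSP70 genes Hspa12a and Hspa12b fell, at 3.02 ± 0.929 and 3.24 ± 0.538 CPM with elemental diet and 5.69 ± 1.18 and 5.69 ± 0.558 CPM with saline (SD, n = 3; log2 fold changes -0.91 and -0.81, edgeR adjusted p = 0.00307 and 0.00102). With exon-exon reads Hspa12a lost its call.

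All 3 HSP110 genes, which encode nucleotide exchange factors for HSP70, rose, where 38.0% of all tested genes did. Hspa4l stood at 115, 115 and 127 CPM with elemental diet, against 20.9, 20.9 and 22.3 CPM with saline (log2 fold change 2.48 ± 0.06 SE, edgeR's adjusted p = 1.7e-13). Hsph1, the inducible HSP105, stood at 257, 244 and 254 CPM with elemental diet, against 57.5, 60.005 and 61.0 CPM with saline (log2 fold change 2.08 ± 0.05 SE, edgeR's adjusted p = 1.3e-13). Hspa4, the most abundant of the family per unit of length, stood at 325, 345 and 348 CPM with elemental diet, against 187, 188 and 192 CPM with saline (log2 fold change 0.84 ± 0.05 SE, edgeR's adjusted p = 8.4e-10). None of the 3 genes overlapped between groups, which also held for 81.0% of all tested genes. Within libraries the TPM of Hsph1 was 0.600, 0.537 and 0.551 of that of Hspa4 with elemental diet and 0.239, 0.248 and 0.247 with saline.

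The mitochondrial chaperonin genes Hspd1 (HSP60, chromosome 1, 55077835 to 55088243) and Hspe1 (HSP10, chromosome 1, 55088132 to 55091307) lie head to head and were among the strongest rises. Hspd1 stood at 672, 672 and 648 CPM with elemental diet, against 142, 142 and 139.5 CPM with saline (log2 fold change 2.23 ± 0.05 SE, edgeR's adjusted p = 3.1e-14). Hspe1 stood at 277, 278 and 247 CPM with elemental diet, against 86.2, 79.3 and 79.4 CPM with saline (log2 fold change 1.71 ± 0.06 SE, edgeR's adjusted p = 5.4e-12). In neither gene did the groups overlap. They did not move by the same amount: the TPM of Hspd1 over that of Hspe1 was 1.36, 1.35 and 1.48 with elemental diet and 0.917, 0.985 and 0.981 with saline (means 1.40 ± 0.0695 and 0.961 ± 0.0382, SD, n = 3 each; exact two-sided permutation p = 0.1).

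By the coordinates above, Hspd1 and Hspe1 overlap at their starts. The stretch before a start of each gene is shown because the genes rose together. The binding site of HSF1, the heat shock element, is built from GAA and TTC units in turn with 2 free bases between them. Windows of 300 bases, 250 before and 50 after each RefSeq transcript start (GRCm38.p6), were searched for 3 units, GAANNTTCNNGAA or TTCNNGAANNTTC, and for 2 units, GAANNTTC or TTCNNGAA, which lie within the longer motif. Each pair of forms covers both strands. Only exact units were matched, so runs that hold a unit with a mismatch were missed. Windows were given for 60 of the 74 genes. Of these 60 genes 4 (6.67%) held 3 units, against 0.662% of 27025 genes, and 16 (26.7%) held 2 units, against 17.0%. The 4 were Hspd1, Hspe1, Hsph1 and Dnajb6, all of which rose. Hspd1 and Hspe1 hold the same run, which is thus counted for both genes. Of the 14 tested genes with at least 2 units 10 rose, 1 fell and 3 were not called, the last including Hspa1a and Hspa1b. That share of rises is near the 63.2% of all tested chaperone genes, where 38.0% of all tested genes rose, so nothing is read from it about the motif. A match is a description of letters and no evidence of binding. The 250 bases before each start are given 5′ to 3′ on the gene's strand, with the units and the bases between them in capitals.
Hspd1 (minus strand, chr1:55087933-55088182): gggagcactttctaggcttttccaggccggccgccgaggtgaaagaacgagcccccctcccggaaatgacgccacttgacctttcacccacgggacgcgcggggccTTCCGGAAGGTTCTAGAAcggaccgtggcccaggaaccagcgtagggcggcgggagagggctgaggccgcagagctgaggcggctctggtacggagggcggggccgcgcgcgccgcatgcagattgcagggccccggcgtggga
Hspe1 (plus strand, chr1:55087898-55088147): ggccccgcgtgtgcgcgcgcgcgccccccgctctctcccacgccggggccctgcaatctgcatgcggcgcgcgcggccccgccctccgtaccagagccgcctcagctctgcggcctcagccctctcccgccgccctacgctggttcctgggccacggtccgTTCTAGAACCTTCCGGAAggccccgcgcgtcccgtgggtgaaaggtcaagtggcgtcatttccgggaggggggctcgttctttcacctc
The 2 stretches share 215 bases, and their capitals are the same 18 bases, chr1:55088059-55088076, read from either strand. This run holds 4 units, 144 to 127 bases before the Hspd1 start and 89 to 72 bases before the Hspe1 start. This Hspd1 start is 1 of 2 listed, and the run lies after the other, not before it.

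Hspa1a and Hspa1b are shown for contrast, as heat-inducible genes that stayed low, and Dnaja4 as a gene that rose 4.53-fold.
Hspa1a (minus strand, chr17:34972157-34972406): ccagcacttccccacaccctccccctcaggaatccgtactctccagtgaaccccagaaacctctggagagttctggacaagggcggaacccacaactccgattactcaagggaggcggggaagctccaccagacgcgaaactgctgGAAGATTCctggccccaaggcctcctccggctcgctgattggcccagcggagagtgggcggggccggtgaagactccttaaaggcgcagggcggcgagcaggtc
Hspa1b (minus strand, chr17:34959239-34959488): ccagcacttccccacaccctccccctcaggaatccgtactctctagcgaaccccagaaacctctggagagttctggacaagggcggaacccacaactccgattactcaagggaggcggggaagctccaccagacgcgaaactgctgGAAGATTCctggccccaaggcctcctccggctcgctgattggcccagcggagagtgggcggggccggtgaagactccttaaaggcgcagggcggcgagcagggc
Dnaja4 (plus strand, chr9:54699309-54699558): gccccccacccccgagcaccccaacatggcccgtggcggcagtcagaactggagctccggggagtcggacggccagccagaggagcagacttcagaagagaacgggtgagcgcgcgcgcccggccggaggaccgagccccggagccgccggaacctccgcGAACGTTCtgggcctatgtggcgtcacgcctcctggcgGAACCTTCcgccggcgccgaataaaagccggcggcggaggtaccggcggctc
Hspa1a and Hspa1b matched at 247 of 250 positions, and each held 1 run of 2 exact units, 104 to 97 bases before the start. Units with a mismatch were not searched for, so nothing is read from this contrast about the strength of their heat shock elements. Dnaja4 held a run of 2 units 90 to 83 bases and again 52 to 45 bases before this start, which is 1 of 2 listed. For Hsph1 and Dnajb6 a window of 30 bases around the 3 units is given.
Hsph1 (minus strand, chr5:149636279-149636308): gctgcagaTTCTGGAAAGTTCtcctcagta
Dnajb6 (plus strand, chr5:29735844-29735873): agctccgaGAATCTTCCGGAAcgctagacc
The Hsph1 run lies 16 to 28 bases after 1 of its 2 listed starts, and the Dnajb6 run 46 to 34 bases before 1 of its 2.

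Small heat shock proteins were scarce and went different ways. Hspb6, or HSP20, stood at 15.4, 17.9 and 18.5 CPM with elemental diet, against 3.41, 3.93 and 4.03 CPM with saline (log2 fold change 2.19 ± 0.13 SE, edgeR's adjusted p = 1.4e-09). Hspb1, or HSP25, stood at 7.83, 3.54 and 2.66 CPM with elemental diet, against 11.5, 10.96 and 9.204 CPM with saline (log2 fold change -1.17 ± 0.39 SE, edgeR's adjusted p = 0.0306). Hspb6 was the only small heat shock gene that rose and Hspb1 the only one that fell in this test. The fall of Hspb1 was uncertain. Elemental diet replicate 1 lay nearer to the saline libraries than to the others of its group, and without it the log2 fold change was -1.75 (edgeR adjusted p = 2.0e-07). That library also stood apart in markers of other cells: Dcn, a fibroblast gene, had 71.0 CPM there and 13.3 and 8.01 CPM in the other elemental diet libraries, against 36.9 to 50.3 CPM with saline. Its salivary duct and basal genes summed to 15.7 CPM, against 6.74 and 7.12 CPM in the other elemental diet libraries and 18.2 to 22.3 CPM with saline. Their part in the result was not tested. The call was lost without elemental diet replicate 2 or without any of the saline replicates, at edgeR adjusted p of 0.0528 to 0.0915, and without the filter on low counts (0.11, edgeR). Hspb2, Hspb7 and Hspb8 overlapped between groups and were not called (log2 fold changes -0.73, -0.00442 and -0.27, edgeR adjusted p = 0.176, 0.988 and 0.244). Hspb9 had 14 reads over the elemental diet libraries and 16 over the saline libraries, too few to test, and Hspb3 had none in any library, which allows up to 0.0867 to 0.117 CPM. Of the small heat shock genes outside the set, Cryab, the neighbour of Hspb2, fell (2.80 ± 0.687 CPM with elemental diet and 5.75 ± 0.958 CPM with saline; log2 fold change -1.03, edgeR adjusted p = 4.8e-04).

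Of the 3 genes that carry the prefix only, Hspbp1, a nucleotide exchange factor of HSP70, stood at 63.5, 68.8 and 58.8 CPM with elemental diet, against 31.1, 30.8 and 30.3 CPM with saline (log2 fold change 1.05 ± 0.07 SE, edgeR's adjusted p = 2.6e-09). Hspbap1, named for binding HSP27, rose by 0.49 on the log2 scale (edgeR adjusted p = 4.3e-04), though 37.2% of its reads with elemental diet and 47.6% with saline lay in introns. Hspb11, the intraflagellar transport protein IFT25, had 6.21, 7.59 and 7.19 CPM with elemental diet, against 6.07, 5.92 and 4.77 CPM with saline. Its groups did not overlap, yet it missed the threshold (log2 fold change 0.32, edgeR adjusted p = 0.0694), except without elemental diet replicate 1, on exon reads or with RLE scaling, where it was called higher.

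**Figure D3:**
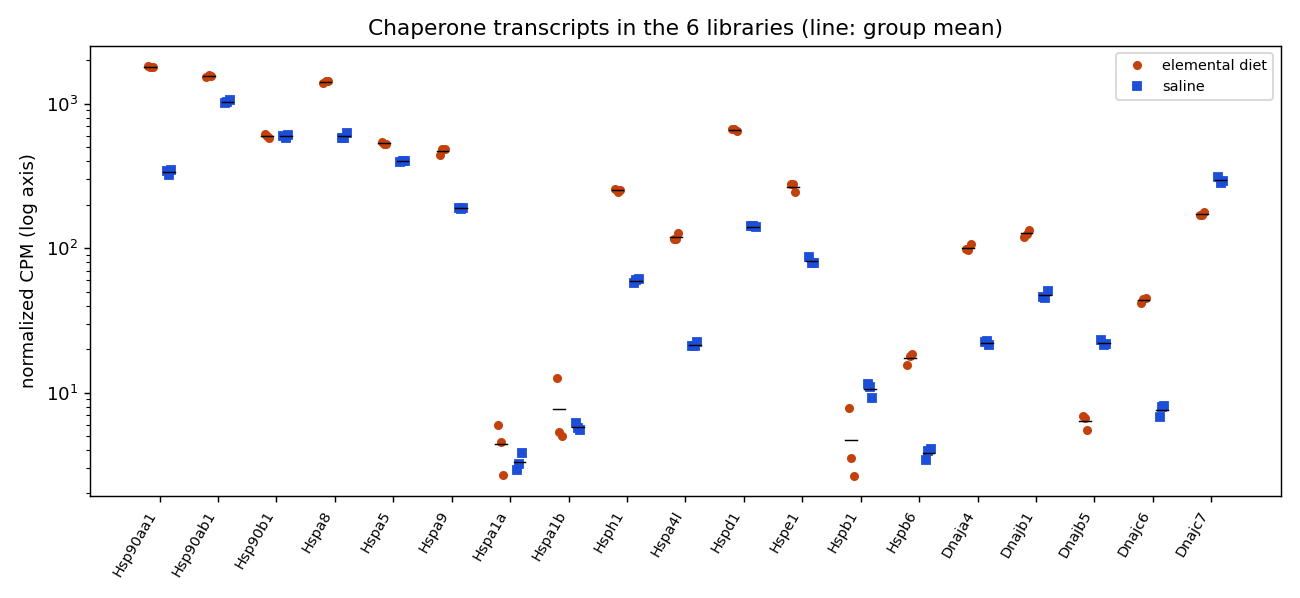
Normalized CPM, on a log axis, of 19 chaperone genes in the 3 elemental diet libraries (circles, left) and the 3 saline libraries (squares, right); lines are group means. Hsp90aa1 stands at 1790.5 to 1819 CPM with elemental diet and 323 to 347 CPM with saline, while Hsp90b1, Hspa1a and Hspa1b overlap.

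All 4 DNAJA genes, the class of J-domain proteins closest to bacterial DnaJ, rose, where 38.0% of all tested genes did. Dnaja4 stood at 98.5, 96.8 and 106 CPM with elemental diet, against 22.2, 22.9 and 21.4 CPM with saline (log2 fold change 2.18 ± 0.06 SE, edgeR's adjusted p = 4.5e-13). Dnaja1, a cytosolic partner of HSC70, stood at 307, 291 and 291 CPM with elemental diet, against 166, 165 and 171 CPM with saline (log2 fold change 0.82 ± 0.05 SE, edgeR's adjusted p = 9.2e-10). The mitochondrial member Dnaja3 and the cytosolic member Dnaja2 rose by 0.88 and 0.52 on the log2 scale. None of the 4 genes overlapped between groups, which also held for 81.0% of all tested genes. Dnaja2, the most abundant per unit of length, had 171, 171 and 176 TPM with elemental diet and 149, 146 and 145 TPM with saline. Dnaja4 remained below it in every library, with a TPM ratio of 0.386, 0.364 and 0.385 with elemental diet and 0.131, 0.133 and 0.122 with saline.

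Of 12 tested DNAJB genes 9 rose (75.0%) and 2 fell (16.7%), beside 38.0% and 40.2% of all tested genes. Dnajb1, the heat-inducible HSP40, stood at 120.2, 126 and 134 CPM with elemental diet, against 45.9, 45.2 and 50.2 CPM with saline (log2 fold change 1.43 ± 0.06 SE, edgeR's adjusted p = 3.7e-11). Dnajb2, which sorts clients to the proteasome, stood at 171, 173 and 179 CPM with elemental diet, against 45.3, 44.6 and 43.5 CPM with saline (log2 fold change 1.97 ± 0.05 SE, edgeR's adjusted p = 1.9e-13). Dnajb4, a relative of Dnajb1, rose by 1.26 on the log2 scale. These 3 genes had no overlap between groups, like 81.0% of all tested genes. Smaller rises were seen for Dnajb14 and Dnajb12, J proteins of the ER membrane, for Dnajb6, which suppresses aggregation, and for Dnajb11, an ER partner of BiP (log2 fold changes 0.65, 0.43, 0.50 and 0.51). Dnajb11 had the highest mean TPM of the class over all 6 libraries, at 96.9, 98.5 and 101 with elemental diet and 88.6, 87.4 and 84.0 with saline.

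The falls among DNAJB genes were Dnajb5 and Dnajb9. Dnajb5, a relative of Dnajb1 that binds class II histone deacetylases, stood at 6.87, 6.63 and 5.51 CPM with elemental diet, against 23.0, 21.2 and 21.5 CPM with saline (log2 fold change -1.79 ± 0.11 SE, edgeR's adjusted p = 2.0e-09). It showed the largest fall of all 68 genes. Dnajb9, the ER protein ERdj4, which is induced by the unfolded protein response, stood at 25.3, 25.8 and 26.2 CPM with elemental diet, against 39.3, 41.8 and 40.8 CPM with saline (log2 fold change -0.66 ± 0.06 SE, edgeR's adjusted p = 2.6e-07). Dnajb3 and Dnajb7, genes of 1 exon that lie inside the Ugt1a cluster and Xpnpep3, had no unique read. Dnajb3 had 3.16, 4.15 and 2.78 CPM with elemental diet, against 0.780, 0.541 and 0.677 CPM with saline (log2 fold change 2.33 ± 0.27 SE, edgeR's adjusted p = 2.8e-06), and with every read shared its rise is uncertain. Dnajb7 was not called (log2 fold change -0.33, edgeR adjusted p = 0.431) although its groups did not overlap. Dnajb8 had 5 reads over the elemental diet libraries and 8 over the saline libraries and was not tested.

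Of 25 tested DNAJC genes 15 rose, 3 fell and 7 did not pass the test. Dnajc6, or auxilin, which with HSC70 strips clathrin from vesicles, stood at 41.8, 44.6 and 45.4 CPM with elemental diet, against 6.82, 7.96 and 8.03 CPM with saline (log2 fold change 2.53 ± 0.09 SE, edgeR's adjusted p = 4.0e-12). It showed the largest rise of all 68 genes. Dnajc9, a chaperone of histone H3 and H4, stood at 192, 196 and 201 CPM with elemental diet, against 75.0, 75.3 and 76.6 CPM with saline (log2 fold change 1.38 ± 0.05 SE, edgeR's adjusted p = 4.2e-12). Dnajc8, a splicing-associated protein, stood at 223, 219 and 227 CPM with elemental diet, against 113, 112 and 113 CPM with saline (log2 fold change 0.99 ± 0.05 SE, edgeR's adjusted p = 9.3e-11). It had the highest mean TPM of the class over all 6 libraries, though not in each of them. In every saline library Dnajc7 was higher in TPM, and in elemental diet replicates 2 and 3 Dnajc9 was slightly higher. The groups did not overlap for Dnajc6, Dnajc9 and Dnajc8, which also held for 81.0% of all tested genes. Dnajc11, of the mitochondrial inner membrane organizing system, Dnajc19, of the mitochondrial import motor, and Dnajc10, an ER disulfide reductase, rose by 1.33, 1.06 and 0.97 on the log2 scale. Unique reads made up 68.3% of Dnajc19 reads with elemental diet and 54.4% with saline, and gave a log2 fold change of 1.35. Dnajc2, of the ribosome-associated complex, rose by 0.76, Dnajc21, of ribosome assembly, by 0.80 and Dnajc24, of diphthamide synthesis, by 0.83. Dnajc25 rose by 1.35, with 26.7% unique reads with elemental diet and an overlapping gene on its strand, and Dnajc28 by 0.84, with 3.28% unique. The rises of Dnajc12, Dnajc27, Dnajc30 and Dnajc15 were the smallest called in the class, at 0.62, 0.35, 0.28 and 0.18, and none was called without composition normalization. Dnajc15 and Dnajc30 also lost their calls on exon reads, on unique reads and each in 4 of the 6 fits that left out a library. Dnajc12, Dnajc27 and Dnajc15 lost theirs on exon-exon reads, where the log2 fold change of Dnajc27 was -0.39.

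Dnajc7, a tetratricopeptide protein that binds both HSP70 and HSP90, went down. It stood at 171, 170.4 and 178 CPM with elemental diet, against 310.2, 285 and 294 CPM with saline (log2 fold change -0.78 ± 0.05 SE, edgeR's adjusted p = 3.3e-09). Dnajc1, a J protein of the ER membrane, and Dnajc4 fell by 0.61 and 0.52 on the log2 scale (edgeR adjusted p = 1.3e-07 and 0.00113), without overlap between groups. Dnajc4 lost its call on exon reads (adjusted p = 0.0636). The 7 genes not called were Dnajc3, the ER co-chaperone P58IPK, Dnajc5, the cysteine string protein, Dnajc13 of endosomes, Dnajc14, Dnajc16, Dnajc17 and Dnajc18. Their log2 fold changes lay between -0.09 and 0.07, and their groups overlapped. Dnajc3 had 113, 117 and 126 CPM with elemental diet, against 117, 128 and 127 CPM with saline (edgeR adjusted p = 0.313). Dnajc5g had no read in any library, and Dnajc5b and Dnajc22 had 4 reads each over the elemental diet libraries and 9 and 13 over the saline libraries, so none of the 3 was tested.

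By compartment, using lists drawn from the same genes, mitochondrial members rose more often than ER members in these counts; the difference between compartments was not tested. Of 10 mitochondrial genes 9 rose and 1, Dnajc4, fell, beside 38.0% and 40.2% of all tested genes. Their median log2 fold change was 0.97. On exon-exon reads Hspa9, Hspd1, Hspe1, Dnaja3, Dnajc11 and Dnajc19 were called higher again and Dnajc4 lower. Dnajc15 lost its call on these reads (edgeR adjusted p = 0.0988), and Dnajc28 and Dnajc30 could not be tested with them. Only 3.28% of Dnajc28 reads with elemental diet were unique. Mean TPM of Dnajc15 and Dnajc30 was lower with elemental diet than with saline, with overlapping groups. Summed TPM of the mitochondrial genes was 1626, 1618 and 1544 with elemental diet and 675, 654 and 641 with saline. Of 9 listed ER genes, which leave out the membrane proteins Dnajb12 and Dnajb14, 4 rose (Dnajc25, Dnajc10, Dnajb11 and Hspa5), 2 fell (Dnajb9 and Dnajc1) and 3 did not pass the test, with a median of 0.01. The share of rises, 44.4%, is near the 38.0% of all tested genes. With exon-exon reads 3 of the 9 rose and 5 fell: Hspa5 lost its call, and Dnajc3, Hspa13 and Hsp90b1 were called lower. Their summed TPM was 1030.1, 993 and 982 with elemental diet and 1124, 1129.8 and 1129 with saline, lower in every elemental diet library. Within libraries the TPM of Hspa9 over that of Hspa5 was 0.879, 0.975 and 0.982 with elemental diet and 0.502, 0.475 and 0.487 with saline. Of 9 heat-inducible genes 6 rose (Hsp90aa1, Hspd1, Hsph1, Hspe1, Dnajb1 and Dnaja1), Hspb1 fell, and Hspa1a and Hspa1b were not called.

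The partners of these chaperones were read from lists of genes outside the set. The main heat shock factor, Hsf1, stood at 48.7, 46.6 and 48.6 CPM with elemental diet, against 42.5, 43.2 and 47.3 CPM with saline and was not called (log2 fold change 0.11, edgeR adjusted p = 0.106), and neither was Hsf2 (0.18, edgeR adjusted p = 0.223). Hsf4 was lower, with 1.26 ± 0.228 CPM with elemental diet and 4.34 ± 1.04 CPM with saline (SD, n = 3; log2 fold change -1.79 ± 0.24 SE, edgeR's adjusted p = 1.3e-05), and Hsf5 had 15 reads over the elemental diet libraries and 18 over the saline libraries, too few to test. Of 20 HSP90 co-chaperones 14 rose and 3 fell (median 0.63). Fkbp4, an immunophilin of steroid receptor complexes, stood at 269 ± 8.39 CPM with elemental diet and 78.8 ± 2.34 CPM with saline (log2 fold change 1.77 ± 0.05 SE, edgeR's adjusted p = 5.8e-13), and Ppid, cyclophilin 40, rose by 1.66 on the log2 scale. Of 13 HSP70 co-chaperones, Hspbp1 among them, 11 rose and 1 fell (median 0.64). Bag2, which inhibits the ubiquitin ligase CHIP, stood at 62.3, 66.5 and 66.3 CPM with elemental diet, against 3.12, 3.42 and 3.45 CPM with saline (log2 fold change 4.29 ± 0.08 SE, edgeR's adjusted p = 1.4e-14). This was a far larger ratio than that of any tested chaperone gene. Bag1, a nucleotide exchange factor, rose by 1.79.

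All 9 genes of the cytosolic chaperonin CCT rose (median 1.29). Tcp1 stood at 514 ± 20.8 CPM with elemental diet and 161 ± 4.598 CPM with saline (log2 fold change 1.68 ± 0.05 SE, edgeR's adjusted p = 9.6e-13), and Cct7 rose by 1.58 on the log2 scale. Of 6 prefoldin genes, whose product delivers actin and tubulin to CCT, 5 rose and 1 fell (median 1.03), with Pfdn6 at 1.53 and Vbp1 at 1.02; the gene that fell was Pfdn5, at -0.46. All 6 genes of mitochondrial proteases and disaggregases rose (median 1.06), with Htra2 at 1.75 and Lonp1 at 1.64. These counts stand beside the 38.0% of all tested genes called higher and 40.2% called lower.

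The kind of read changed some calls. Across the 65 tested chaperone genes with at least 100 reads in each group, the median share of reads in introns was 5.66% with elemental diet and 9.27% with saline. The share was lower with elemental diet in 53 of them (81.5%). Over all tested genes with as many reads the medians were 10.3% and 15.5%, and 80.1% were lower with elemental diet. With exon-exon reads, which span a splice junction, 58 of the 68 genes could be tested, 34 of the 43 rises and 7 of the 8 falls were called again, and 6 genes not called with all reads fell (Dnajc3, Dnajc5, Dnajc13, Dnajc14, Hspa13 and Hsp90b1). That made 35 rises and 14 falls, where 37.8% of all genes tested with these reads rose and 38.9% fell. Dnajb13, a radial spoke protein of sperm flagella, reversed. It had 19.1, 18.1 and 22.0 CPM with elemental diet, against 7.28, 8.98 and 5.39 CPM with saline (log2 fold change 1.45), with 74.2% and 58.5% of reads in introns, and its exon-exon reads gave -2.64 (edgeR adjusted p = 1.0e-05). The gene overlaps Ucp2 on the other strand. Dnajc17 was not called with all reads, but with exon reads its log2 fold change was 0.70 (edgeR adjusted p = 2.5e-04); 25.6% of its reads with elemental diet and 59.7% with saline lay in introns. Whether counting used strand was not given in the sources used here.

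**Figure D4:**
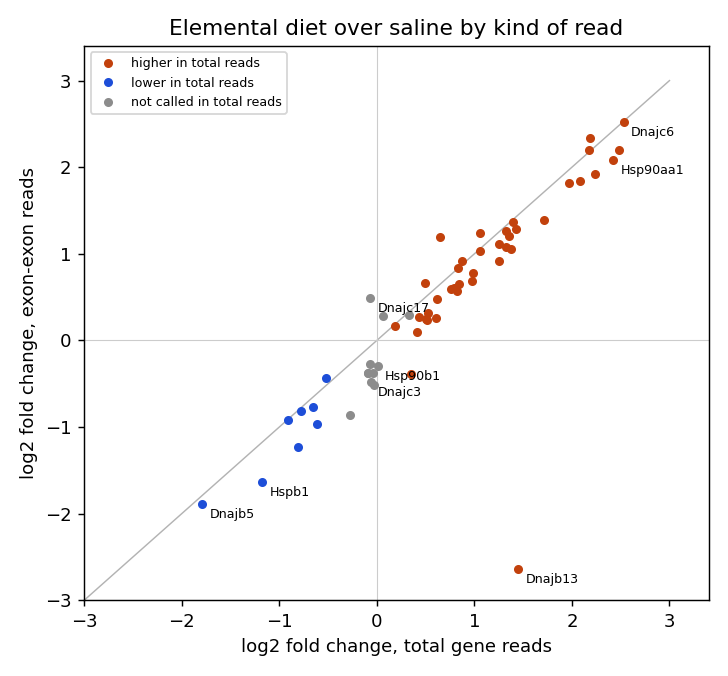
Log2 fold change of elemental diet over saline from all gene reads (horizontal axis) and from exon-exon reads (vertical axis) for the 58 chaperone genes tested with both; the line marks equality and colours mark the call with all reads. Most genes lie below the line, often by a small amount, and some, Dnajc17 among them, lie above it. Dnajb13 lies far below it at 1.45 and -2.64. The median of the chaperone genes tested was 0.60 with all reads and 0.53 with exon-exon reads. Over all genes tested it was -0.08 and -0.05.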

How the data were processed

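Poly(A) RNA was sequenced as 75 bp paired reads, per the labels' protocols. The authors deposited, per the file headers, 1 table per library with counts of total, unique, exon, intron and exon-exon reads for each gene, and TPM; RPKM columns were not used. The builds GRCm38 and GRCh37 stand in the submitters' processing notes, and the files' coordinates are mouse. Aligner, counting rules and strand setting were not stated in the sources used. The genes and lists described were chosen with earlier results of these data known.

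Total gene counts of 3 elemental diet and 3 saline libraries (29053287 to 33073125 reads each) were filtered with filterByExpr, scaled by TMM and tested with edgeR 4.0.16 (R 4.3.3, limma 3.58.1; robust quasi-likelihood, 18303 genes) with Benjamini-Hochberg adjustment over all genes tested at 0.05. A log2 fold change is elemental diet minus saline, and its SE is the change over the square root of F. The deposited TPM served for levels between genes, sums and ratios within a library. The script for the fits was tested on simulated data. No libraries agreed within sampling noise. The filter left tested chaperone genes down to a mean of 0.529 CPM, and the common coefficient of variation between replicates was 8.26%.

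Genes described in full were 16 fixed chaperone genes, the 8 largest rises and 8 largest falls among those called at a mean of at least 1 CPM with no overlap between groups, the highest TPM of each family, every gene not called or not tested, Hsf1 and Hsf2, and in each other list the 2 smallest p. Further genes were described after their values were seen. Alternatives were RLE, upper quartile or no composition scaling, no filter on low counts, unique, exon or exon-exon reads, DESeq2 1.42.0, a replicate block, a test against 1.5-fold, and each library left out.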

Additional observations from a re-analysis of the deposited data

How the results depend on the processing

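The count of rises, 43 as reported, lay between 29 (against 1.5-fold, where 24.2% of all genes tested rose) and 44 (with RLE scaling, where 39.1% rose, and without elemental diet replicate 1 or 3, where 37.5% and 36.2% rose). The count of falls, 8 as reported, was 18 without composition normalization, 18 with upper quartile scaling, 14 with exon-exon reads and 2 against 1.5-fold. Over all genes tested, 50.6% fell without composition normalization, 49.5% with upper quartile scaling, 38.9% with exon-exon reads and 26.6% against 1.5-fold. The median log2 fold change of the chaperone genes, 0.60 as reported, was 0.65 with DESeq2, 0.64 with RLE scaling, 0.53 with exon-exon reads, 0.56 with unique reads, 0.32 with upper quartile scaling and 0.29 without composition normalization. Leaving out each library gave medians of 0.55 to 0.63, 41 to 44 rises and 7 to 8 falls. Dnajb13, called higher with all reads, was called lower with exon-exon reads (-2.64). Among the genes named by rule, reversed values were those of Hsp90b1 (log2 fold change -0.29 with exon-exon reads, -0.30 without composition normalization, -0.26 with upper quartile scaling), Dnajc18 (-0.24 and -0.21 under those 2 scalings) and Dnajc17 (0.70 with exon reads, 0.49 with exon-exon reads); the cause was not tested. Of 665 pairs of a gene named by rule and an alternative, leaving out the 1.5-fold test, 621 kept direction and call, 29 gained a call, 8 lost it and 7 reversed. Against 1.5-fold 20 of the 68 genes lost their call, among them Hsp90ab1, Hspa5 and Hspb1. With the replicate block 43 genes rose and 8 fell, and no call changed; deviations of libraries with the same number correlated at 0.258, 0.0265 and 0.161, and not every library correlated best with its own number (elemental diet replicate 2 with saline replicate 3 at 0.123), so the numbers were not taken as pairs. With 3 libraries a group, an exact permutation test of 1 value cannot go below p = 0.1. The 6 genes not tested had 0 to 16 reads over the libraries of a group, so a difference in them was not detectable at this depth.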
